A study of Mus musculus with 9 samples.

Results

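Livers of mice that lack Scd2 in cells expressing Col1a1 were compared with livers of floxed mice that keep it, both after the carcinogen diethylnitrosamine (DEN) and a Western alcohol diet (WAD). The deposited table lists 16755 genes, all of which were taken, and 11847 of them averaged 1 or more over both treated groups, a floor that all counts and medians below use. The knockout group held 3 male Scd2f/f;Col1a1-Cre mice (Scd2f/f;CC), and the control group 3 male Scd2f/f mice, all on a C57BL/6 background. DEN was given to both at an age of 2 weeks in a dose of 10 mg/kg, and the diet began at 6 weeks and lasted 4 months according to the sample labels. A further group of 3 untreated Scd2f/f livers completes the 9 samples and is given beside both; its protocol text in the labels also lists the treatment, while its treatment field reads untreated. All groups share the floxed Scd2 gene, in which the third exon lies between loxP sites, and the Cre recombinase is driven by a Col1a1 promoter, so that Scd2 remains intact in cells that do not use this promoter. The labels call the tissue liver, and the study's text uses both a tumor-adjacent and a non-tumor name for it. The values are the authors' group means of normalized read counts, from which neither a spread between mice nor a test can be computed. The authors' own p-values were not used, so every difference below is given without an error or a test.

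Hepatic stellate cells store vitamin A in the healthy liver, and after injury they become myofibroblasts that make fibrillar collagen. Activated stellate cells and portal fibroblasts are the main users of the Col1a1 gene in liver. Stearoyl-CoA desaturases place a double bond in saturated fatty acids and so make monounsaturated ones. Scd1 is the main form of hepatocytes, while Scd2 is used by many other cells.

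Genes of collagen-producing cells, of inflammatory macrophages and of bile duct cells had lower means in Scd2f/f;CC than in Scd2f/f livers, and major urinary protein genes and a set of cytochrome P450 genes had higher means. Quotients are given as the log2 of the Scd2f/f;CC mean over the Scd2f/f mean, so a negative value is a lower mean in the knockout. Among the 11847 genes, 195 (1.65%) were at least 2-fold lower and 76 (0.642%) at least 2-fold higher. Of the calls at this limit, 28.0% were higher ones. That share was 13.8% when both groups were scaled to an equal sum, and 18.1% with equal sums of protein-coding genes. A lower mean by any amount was found for 48.6% of the genes and a higher one for 50.3%, and the median quotient was 0.0041. These shares are the background for every count of a gene list below. Of the 195 lower genes 178 were protein-coding, as were 53 of the 76 higher ones. In the 195 genes, the median log2 quotient of treated over untreated Scd2f/f livers was 1.19, and that of Scd2f/f;CC over untreated livers was -0.22. In the 76 higher genes these medians were -0.93 and 0.56. Both comparisons of the treated Scd2f/f livers use the same 3 mice, so these values stand side by side and do not support each other.

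**Figure D1:**
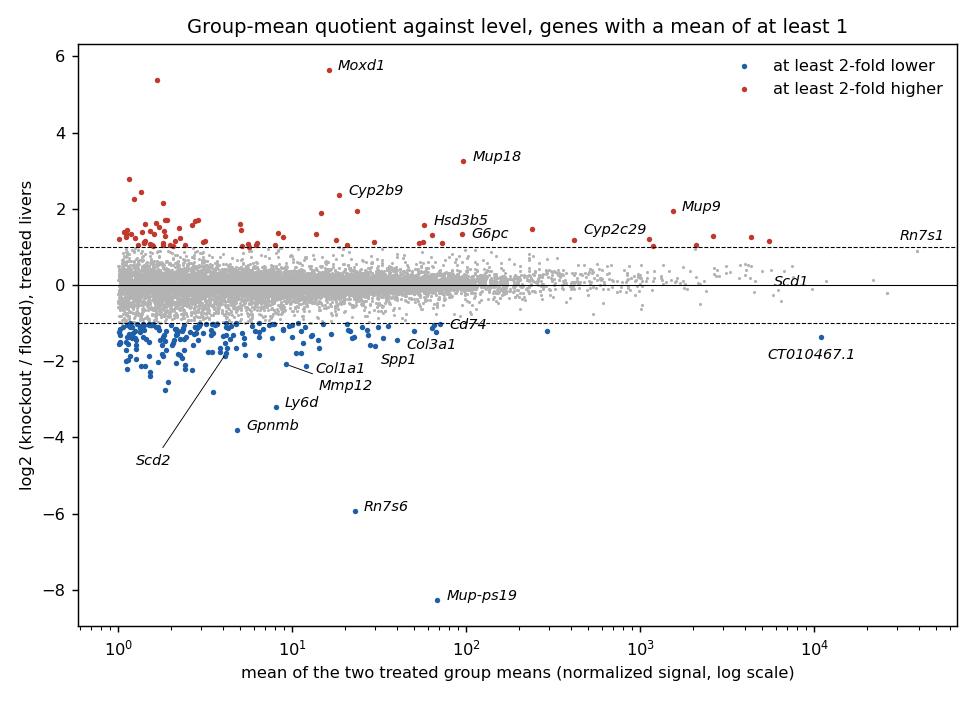
Log2 quotient of the Scd2f/f;CC over the Scd2f/f group mean (vertical axis) against the mean of both (horizontal axis, normalized signal, log scale) for the 11847 genes above the floor. Each point is a gene, blue points are the 195 genes at least 2-fold lower, red points the 76 at least 2-fold higher, and dashed lines mark the 2-fold limits; Moxd1 is the highest point and Mup-ps19 the lowest.

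The quotients spread more widely at low means. Between a mean of 1 and 3, 4.15% of 2579 genes were at least 2-fold lower and the middle 90% ran from -0.92 to 0.59. Between 10 and 30 that share was 0.791% of 3162 genes and the range ran from -0.37 to 0.31. The 79 genes at 1000 and over had a median of 0.20, and 7 of them were at least 2-fold higher, against 1 lower. Among these 7 were Serpina1e and the major urinary protein genes Mup9, Mup15, Mup16 and Mup17. The lower gene was CT010467.1, annotated as ribosomal RNA. The summed mean of all genes was 739723 in Scd2f/f;CC and 658322 in Scd2f/f livers, and scaling both to an equal sum would shift every log2 quotient by -0.17. A pair of noncoding genes with identical values, Rn7s1 and Rn7s2, copies of the RNA of the signal recognition particle, each had a mean of 27500 in Scd2f/f and 51000 in Scd2f/f;CC livers. Without this pair, equal sums would shift every log2 quotient by -0.08. Rn7s6, a further gene of this name, went the other way, with means of 44.9 in Scd2f/f and 0.742 in Scd2f/f;CC livers.

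**Figure D2:**
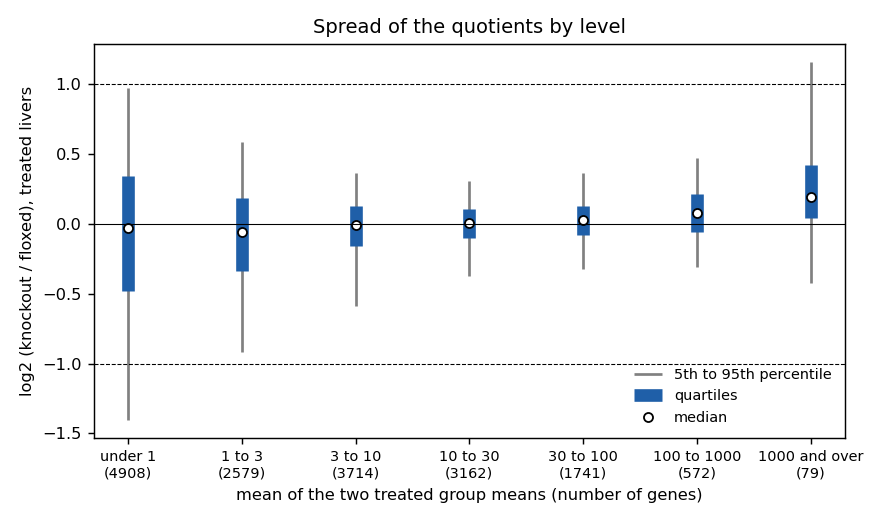
Spread of the log2 quotients (vertical axis) by the mean of both treated groups (horizontal axis, with the number of genes in each class). Bars are quartiles, thin lines the 5th to 95th percentile and circles medians; the spread narrows from the lowest means to those of 10 to 30, and the median of the class of 1000 and over is 0.20.

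Scd2, the targeted gene (mm10 chr19:44293676-44306865, plus strand), was lower in Scd2f/f;CC livers. Its mean was 2.46 in untreated, 6.47 in treated Scd2f/f and 1.87 in Scd2f/f;CC livers, 3.46-fold lower with a log2 quotient of -1.79. The remaining Scd2 signal cannot be assigned to a cell type in bulk liver, and throughout, fewer cells of a type and less RNA per cell cannot be told apart. Scd1, the hepatocyte enzyme, had means of 1670, 6360 and 5310 in the same order and a quotient of -0.26. Within 1 Mb of Scd2, 22 other genes above the floor had quotients from -0.31 to 0.88, the highest of them Got1, a transaminase, and 0 were past the 2-fold limit. Around Col1a1, whose promoter type drives the Cre, 26 neighbours ran from -0.53 to 0.34, again with 0 past the limit.

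Markers of activated stellate cells and myofibroblasts were lower throughout the list. Of the 25 listed genes 19 were above the floor, and all 19 had a lower mean in Scd2f/f;CC livers, 8 of them by at least 2-fold, with a median of -0.86 against 0.0041 over all genes. Col1a1, the major chain of collagen I, had means of 4.69, 19.6 and 4.51 in untreated, treated Scd2f/f and Scd2f/f;CC livers, 4.35-fold lower in the knockout than in the floxed group, and lies at mm10 chr11:94936224-94953043 on the plus strand. Its partner chain Col1a2 had means of 6.65, 21.7 and 6.93. Col3a1, the chain of collagen III, had means of 19.3, 58.6 and 21.6. In these 3 genes the Scd2f/f;CC mean lay close to the untreated one. Pdgfrb, the receptor through which PDGF drives stellate cell growth, had a quotient of -1.06, and the smooth muscle genes Tagln and Tpm2 had quotients of -1.11 and -1.03. Tpm2 lies in a stretch of chromosome 4, described at the end, in which all 15 protein-coding genes above the floor were lower. Tgfbr1, a TGF-beta receptor, was nearest to 0, at -0.34. The 6 listed genes below the floor were also lower, among them Timp1, an inhibitor of matrix proteases, with 0.645 in Scd2f/f and 0.0484 in Scd2f/f;CC livers, and Acta2, smooth muscle actin, with 1.2 and 0.388. Over the whole table, 51.9% of the 4908 genes below the floor were lower.

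The promoters of Col1a2 and Col3a1, the 2 collagen genes above for which RefSeq sequence (GRCm38.p6) was at hand, are shown as the 250 bases before the annotated start, 5′ to 3′. Those of Mmp13 and Itgax, which encode a matrix protease and an integrin of myeloid cells, stand beside them because they hold the AP-1 motif. Capitals mark matches to the AP-1 motif TGACTCA or to the TEAD motif CATTCC on either strand.
Col1a2 promoter, chr6:4505368-4505617, strand +: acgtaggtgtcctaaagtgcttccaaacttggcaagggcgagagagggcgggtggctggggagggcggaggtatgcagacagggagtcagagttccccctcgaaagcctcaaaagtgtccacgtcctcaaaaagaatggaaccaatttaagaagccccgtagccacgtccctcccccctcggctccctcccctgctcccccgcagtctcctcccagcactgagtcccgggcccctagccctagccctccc
Col3a1 promoter, chr1:45311288-45311537, strand +: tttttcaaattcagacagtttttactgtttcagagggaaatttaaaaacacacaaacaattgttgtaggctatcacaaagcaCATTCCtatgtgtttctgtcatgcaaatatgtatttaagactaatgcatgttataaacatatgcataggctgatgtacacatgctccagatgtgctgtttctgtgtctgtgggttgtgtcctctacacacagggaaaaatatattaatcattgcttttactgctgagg
Mmp13 promoter, chr9:7272264-7272513, strand +: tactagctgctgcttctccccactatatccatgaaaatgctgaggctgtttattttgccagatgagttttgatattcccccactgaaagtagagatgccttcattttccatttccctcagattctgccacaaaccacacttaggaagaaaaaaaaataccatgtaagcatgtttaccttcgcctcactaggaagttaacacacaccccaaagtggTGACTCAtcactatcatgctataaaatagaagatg
Itgax promoter, chr7:128129300-128129549, strand +: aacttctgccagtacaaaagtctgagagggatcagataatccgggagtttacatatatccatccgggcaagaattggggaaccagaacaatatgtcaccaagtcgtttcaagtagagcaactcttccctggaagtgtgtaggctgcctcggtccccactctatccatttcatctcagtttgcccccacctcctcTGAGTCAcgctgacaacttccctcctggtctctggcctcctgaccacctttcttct

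The window of Col1a2 held none of the 6 motifs searched, that of Col3a1 held CATTCC from 168 to 163 bases before the start, and those of Mmp13 and Itgax held the AP-1 motif from 35 to 29 and from 56 to 50 bases before it. RefSeq windows of 300 bases, which add 50 bases after the start, were matched by symbol for 8822 of the genes above the floor, with 11353 starts. The AP-1 motif, searched on both strands, stood in 3.92% of all these windows, in 19 of the 181 windows of genes at least 2-fold lower and in 6 of the 50 windows of genes at least 2-fold higher. The lower set with the motif held 18 genes, among them Mmp12, Mmp13, Itgax, Gpnmb, Ddr1 and Cd207. CATTCC stood in 1361 of all windows, in 23 of the lower and in 13 of the higher set, where Mup7, Mup9, Mup15 and Mup17 are near-identical genes. The sterol response element TCACNCCAC stood in 137, 2 and 0 of them, the PU.1 motif GAGGAAGT in 337, 5 and 2, the CArG box in 138, 3 and 0, and the HNF4 motif in 24, 0 and 0. A match describes these letters and is not a bound site.

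Collagens beyond the fibril-forming core were lower as well. Of 19 collagen genes above the floor 15 were lower and 6 by at least 2-fold, with a median of -0.76. The 3 chains of collagen VI, which forms beaded filaments around cells, had quotients from -1.44 for Col6a3 to -0.94 for Col6a1. Col4a1 and Col4a2, the basement membrane chains, had quotients of -0.69 and -0.47, with means of 39.9 and 24.7 for Col4a1. Col18a1, a basement membrane collagen that hepatocytes also make, was higher in the knockout, with 379 in Scd2f/f and 458 in Scd2f/f;CC livers and a quotient of 0.27. Col27a1, Col13a1 and Col5a3 were the other higher members.

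Glycoproteins and proteoglycans of the matrix were lower except for a few that hepatocytes make. Of 21 genes above the floor 18 were lower and 5 by at least 2-fold, with a median of -0.81, and of -0.36 with a floor of 10. Thbs1 and Tnc, matrix proteins of injury, had quotients of -1.65 and -1.40. Fbln5 and Fbn1, parts of elastic fibers and microfibrils, had quotients of -1.29 and -1.24. Among the small proteoglycans that bind collagen, Dcn had means of 70.3, 118 and 67.2 in untreated, treated Scd2f/f and Scd2f/f;CC livers, and Bgn 30.7, 57.9 and 30.9. Both were thus close to the untreated mean. Fn1, fibronectin, which hepatocytes secrete into plasma, had means of 1000, 1280 and 1660 and a quotient of 0.38, and Vtn, vitronectin, had a quotient of 0.08, which equal sums would turn negative.

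Genes that process collagen lay on both sides of 0. Loxl1, a lysyl oxidase that crosslinks elastin and collagen, had means of 2.01 and 0.525 in Scd2f/f and Scd2f/f;CC livers and a quotient of -1.94. Serpinh1, the collagen chaperone, had a quotient of -0.90 and Loxl2 of -0.84. Bmp1, the protease that trims procollagen, had means of 33.7 and 39.9 and a quotient of 0.24. Over the list 9 of 12 genes were lower and 1 by at least 2-fold, with a median of -0.47, which turned to 0.079 with a floor of 10. Among matrix proteases and their inhibitors, 15 of 16 were lower and 4 by at least 2-fold, with a median of -0.42, and of -0.15 with a floor of 10. Mmp12, the macrophage elastase, had means of 0.157, 14.9 and 3.52 in untreated, treated Scd2f/f and Scd2f/f;CC livers, and Mmp13, a collagenase, 0.0944, 1.84 and 0.402. Both were well above the untreated mean in the knockout. Mmp2, the gelatinase of fibroblasts, had a quotient of -1.52. Mmp19 was the exception, with means of 40.3 and 44.3.

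TGF-beta and PDGF genes were lower in 21 of 24 cases, with 1, Pdgfrb, past the 2-fold limit and a median of -0.31, which was -0.065 with a floor of 10. Pdgfra, the partner receptor, had a quotient of -0.82 and Pdgfb, a ligand, of -0.81. Tgfb1 had a quotient of -0.42, and the signal carriers Smad2, Smad3 and Smad4 had quotients from -0.23 to -0.06.

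Markers of quiescent stellate cells were lower by less. Of 14 genes, 11 were lower and 0 by at least 2-fold, with a median of -0.34. Besides Dcn, given above, Des, desmin, had a quotient of -0.73 and Hand2, a transcription factor, of -0.63. Lrat, which esterifies retinol for storage, had means of 15, 19 and 16 in untreated, treated Scd2f/f and Scd2f/f;CC livers and a quotient of -0.25. Of the 3 higher members, Ecm1 and Pth1r were at 0.02 and 0.03, which equal sums would turn negative. The highest member was at 0.25. The part of stellate cell numbers in the collagen quotients was not tested. The summed mean of the quiescent list was 346 in Scd2f/f and 263 in Scd2f/f;CC livers, and that of the activated list 276 and 142. Portal fibroblast markers were lower in 5 of 5 cases above the floor, among them Dpt, dermatopontin, at -1.44, and 7 of the 12 found were below it.

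Endothelial markers lay near 0. Over 15 markers of sinusoidal endothelial cells the median was 0.06, and -0.11 with equal sums. Stab2, a scavenger receptor, had means of 42.8 and 45.9 in Scd2f/f and Scd2f/f;CC livers, and Kdr, the VEGF receptor, 34.9 and 40.2. Lyve1, a hyaluronan receptor, was set apart with means of 6.6 and 3.44 and a quotient of -0.94. Vascular endothelial markers had a median of -0.04, with Plvap lowest at -0.52.

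Monocyte and lipid-associated macrophage genes were lower in 21 of 22 cases and by at least 2-fold in 7, with a median of -0.70. Gpnmb, a glycoprotein of lipid-laden macrophages, had means of 0.0937, 8.98 and 0.638 in untreated, treated Scd2f/f and Scd2f/f;CC livers, 14.1-fold lower in the knockout. Cx3cr1, the fractalkine receptor, had means of 0.256, 2.54 and 0.482. Trem2, a lipid receptor of these macrophages, had means of 0.253, 1.8 and 0.459. These means were low, and all 3 lay between those of untreated and of treated Scd2f/f livers. Lyz2, a lysozyme, and Ctsb, a lysosomal protease, had quotients of -0.75 and -0.25. In the same list Csf1r, the receptor for the macrophage growth factor, had means of 17, 60.8 and 53.5 and a quotient of -0.18. Fabp5 was the 1 higher member, at 0.40. The summed mean of this list was 450 in untreated, 985 in treated Scd2f/f and 715 in Scd2f/f;CC livers, and the part of macrophage numbers in other quotients was not tested.

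Resident Kupffer cell markers differed less. Of 16 genes 11 were lower and 0 by at least 2-fold, with a median of -0.17, while their median in treated against untreated Scd2f/f livers was 1.72. Clec4f, the lectin that defines Kupffer cells in mice, had means of 27.3, 71.2 and 71.7 in untreated, treated Scd2f/f and Scd2f/f;CC livers. Cd5l, which resident macrophages secrete, had means of 22.9, 114 and 99. Id3, a transcription factor, was the lowest member at -0.86, with means of 18.1 in Scd2f/f and 9.99 in Scd2f/f;CC livers. The 3 chains of C1q, C1qa, C1qb and C1qc, had quotients from -0.54 to -0.52. Cd163, a scavenger receptor, was higher in the knockout, at 0.61.

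Dendritic cell markers were lower in 6 of 6 cases, 2 of them by at least 2-fold. Those 2 were Cd207, langerin, at -1.83 and Itgax, which also counts in the macrophage list, at -1.71. Zbtb46 was nearest to 0, at -0.02, with means of 3.35 in Scd2f/f and 3.31 in Scd2f/f;CC livers. The 6 MHC class II genes had a median of -0.99, and 3 of them were past the 2-fold limit. Cd74, the invariant chain, had means of 16.1, 94.9 and 46.8 in untreated, treated Scd2f/f and Scd2f/f;CC livers, and H2-Ab1, a class II chain, 6.48, 37.4 and 16.4. The 8 class I and peptide-loading genes, which most cells use, had a median of -0.07, from B2m at -0.47 to Nlrc5 at 0.20. Of 18 T and NK cell markers found, 16 were below the floor, where 15 were lower. Of the other 2, Ccl5, a chemokine of T cells, had means of 1.92 in Scd2f/f and 0.596 in Scd2f/f;CC livers, and Zap70, a kinase of T cell receptor signaling, was higher with 2.57 and 3.7. B and plasma cell markers stood on both sides of 0, with 3 of 6 below it. Only 1 of the 6 was listed as a B cell gene, Cd22 at -0.69. The other 5 were listed as plasma cell genes, of which 2 were lower and 3 higher. Of 7 neutrophil markers found 3 were above the floor and all 3 were lower, among them S100a9 with 1.94 and 1.59, while Lcn2, which hepatocytes also make, is described with the acute phase genes.

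Of 16 chemokines and receptors, 14 were lower and 5 by at least 2-fold, with a median of -0.70, and of -0.18 with a floor of 10. Cxcl1, which attracts neutrophils, had means of 11.8, 17.5 and 5.04 in untreated, treated Scd2f/f and Scd2f/f;CC livers, so the knockout lay below both other groups. Ccl2, which attracts monocytes, had means of 0.172, 1.72 and 0.715. Cxcl12, a chemokine of stromal and endothelial cells, had means of 115 and 126 in the 2 treated groups. Interferon-stimulated genes were near the background, with 16 of 26 lower, a median of -0.09 and 0 past the limit.

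Acute phase genes separated into a few with large quotients and many near 0, with 16 of 26 lower and 3 past the limit. Socs3, a brake on cytokine signaling, had means of 6.44, 16.2 and 4.71 in untreated, treated Scd2f/f and Scd2f/f;CC livers. Lcn2, lipocalin 2, had means of 5.21, 41.8 and 14.1, and Orm2, an orosomucoid, 5.83, 32 and 12.3. Saa1 and Saa2, serum amyloid genes, had quotients of -0.53 and -0.75. The plasma protein genes Alb, Trf, Fga and Hpx had quotients from -0.14 to 0.12. Complement and coagulation genes, most of them from hepatocytes, had a median of 0.11, which becomes -0.054 with equal sums.

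**Figure D3:**
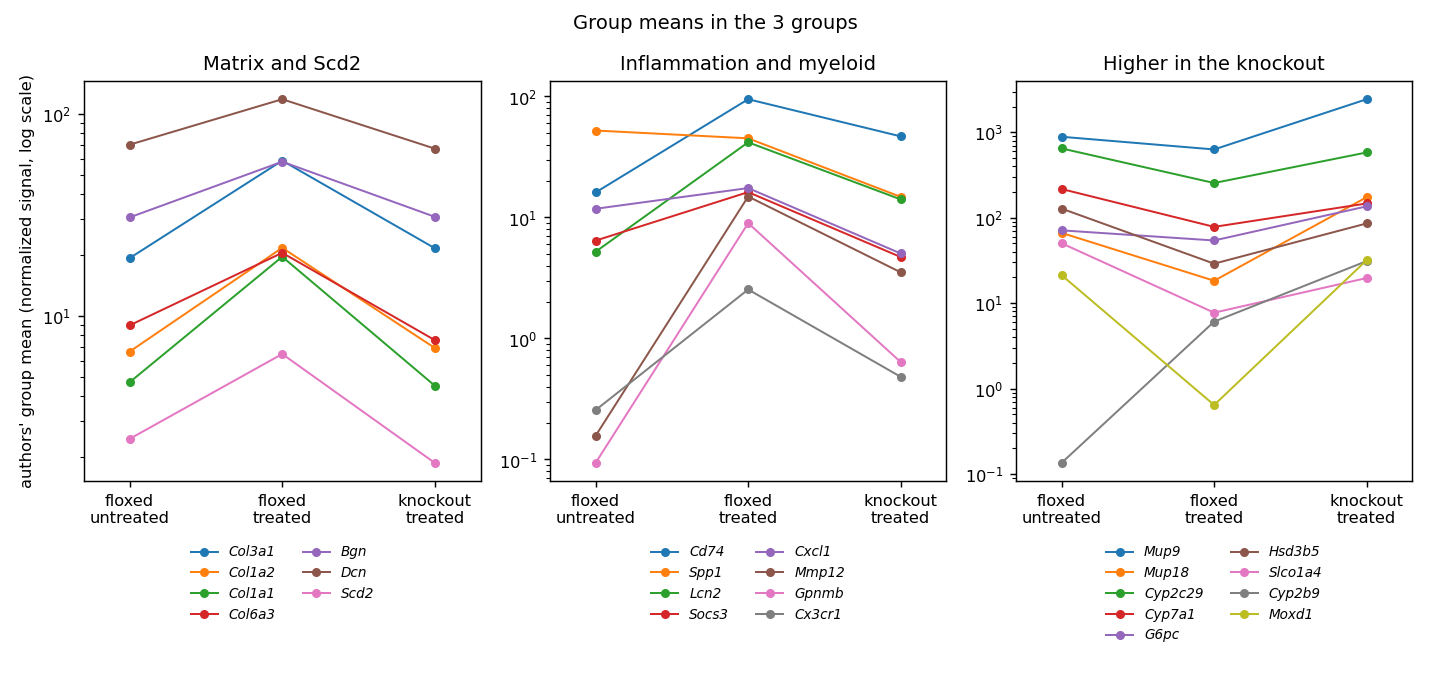
Authors' group means (vertical axis, normalized signal, log scale) of untreated Scd2f/f, treated Scd2f/f and treated Scd2f/f;CC livers (horizontal axis), 3 mice per group, 1 line per gene. Col1a1 goes from 4.69 through 19.6 to 4.51, Gpnmb from 0.0937 through 8.98 to 0.638 and Hsd3b5 from 128 through 29 to 85.8; no error is shown because only group means were used.

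Genes of bile duct cells and of liver tumors held some of the lowest quotients. Of 7 cholangiocyte markers above the floor 5 were lower and 3 by at least 2-fold, with a median of -0.61. With a floor of 10 only Spp1 remained, at -1.61. All 6 markers below the floor of 1 were lower, with a median of -2.35. Epcam, an adhesion protein of biliary and progenitor cells, had means of 1.97, 1.82 and 0.5 in untreated, treated Scd2f/f and Scd2f/f;CC livers. Krt19, a defining keratin, had means of 0.746, 0.751 and 0.204. Both were alike in the 2 Scd2f/f groups and lower in the knockout. Spp1, osteopontin, which bile duct cells and macrophages make, had means of 52.3, 45.1 and 14.8, and it counts in both lists.

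The oncofetal and liver tumor list had 10 of 13 genes lower and 5 by at least 2-fold, with a median of -0.88. That median was -0.12 with a floor of 10 and -0.50 with a pseudocount of 1. Ly6d, a surface protein, had means of 1.71, 14.5 and 1.59 in untreated, treated Scd2f/f and Scd2f/f;CC livers, 9.12-fold lower. Nrg1, a ligand of the ERBB receptors, had a quotient of -2.13, Cd24a, a progenitor marker, of -2.04, and Ddr1, a collagen receptor, of -1.98. Nrg1, Cd24a and Ddr1 had means of 2.21, 3.44 and 1.77 in Scd2f/f livers, in the range where quotients spread widely. Afp, the fetal albumin-like protein, had means of 1.21, 2.47 and 1.61. Met, the receptor for hepatocyte growth factor, and Epha2, an ephrin receptor, had quotients of 0.29 and -0.12. H19 and Tff3 were on the higher side, at 0.63 and 0.87. In the NOTCH list 8 of 10 were lower, and Hes1, a target of the pathway, had means of 2.69, 9.28 and 3.6, while the receptors Notch1 and Notch2 had quotients of -0.17 and -0.02.

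NRF2 antioxidant targets were lower in 15 of 17 cases with 2 past the limit and a median of -0.46. Gsta1, a glutathione transferase, had means of 2.82, 10 and 2.79 in untreated, treated Scd2f/f and Scd2f/f;CC livers, and Gstm1 389, 678 and 398. Gstm3 had means of 28.5, 29.8 and 12.9. Gsta1 and Gstm1 have close paralogs, between which the counting may split reads. Hmox1, heme oxygenase, had a quotient of -0.65 and Gclc, which starts glutathione synthesis, of -0.37, whereas Prdx1 and Gclm were at 0.05 and 0.04.

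Cell cycle genes divided by role. All 7 chromosome and spindle genes above the floor were lower, with a median of -0.74, among them Top2a, with means of 0.963, 3.88 and 2.33 in untreated, treated Scd2f/f and Scd2f/f;CC livers, and Mki67, with 1.41, 8.32 and 4.86. Replication genes such as Pcna and the Mcm genes had a median of 0.08, with 9 of 11 higher, a value that equal sums would turn negative. Ccnd1, cyclin D1, had means of 19.2, 23.1 and 17.9. Among p53 targets 14 of 16 were lower, with Cdkn1a, the cell cycle inhibitor p21, at 0.464, 4.33 and 1.8, and Mdm2 at a quotient of -0.17.

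Immediate early genes were lower in 11 of 14 cases and by at least 2-fold in 3, with a median of -0.45. Atf3 had means of 0.404, 3.69 and 0.982 in untreated, treated Scd2f/f and Scd2f/f;CC livers, Klf6 6.75, 23.8 and 9.75, and Jun 24, 41.4 and 25. Myc, a driver of growth, had means of 6.84, 6.41 and 2.05, below both Scd2f/f groups. Nr4a1 and Dusp6 were higher, at 0.77 and 0.44. The list of endoplasmic reticulum and integrated stress genes had a median of -0.06. Its 3 members past the limit were Atf3, Chac1 and Fgf21, targets of the integrated stress response, while the chaperone Hspa5 had a quotient of 0.09 and Atf4 of 0.10.

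**Figure D4:**
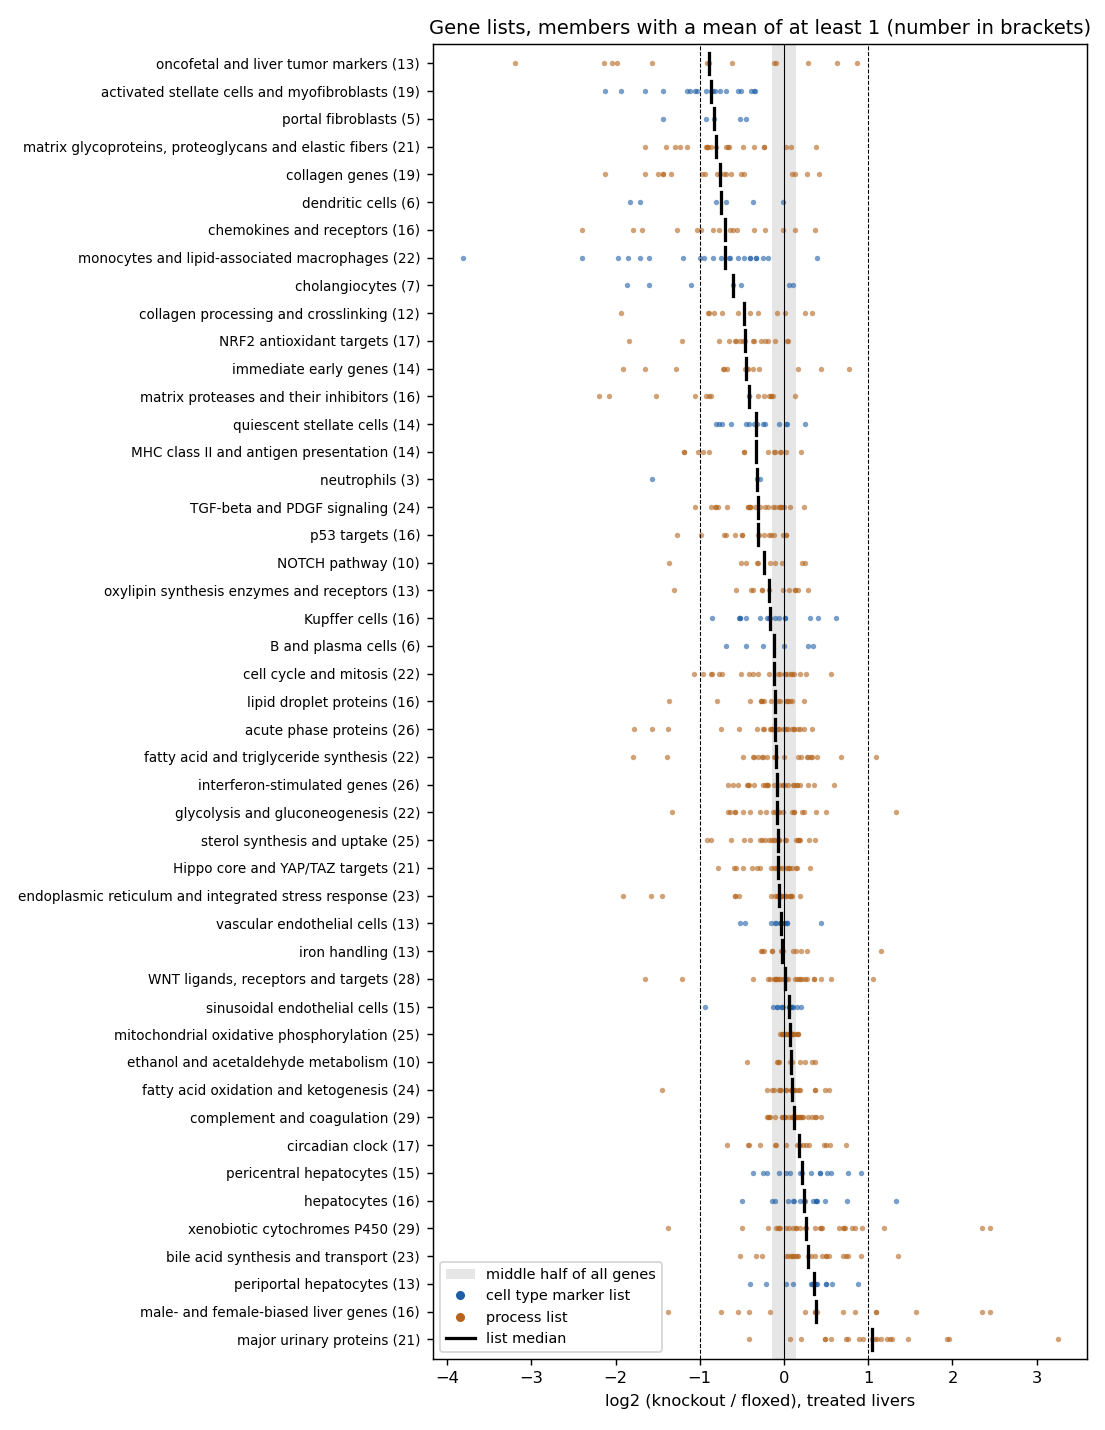
Log2 quotients (horizontal axis) of the members of each gene list above the floor, for lists with at least 3 of these (their number in brackets). Each point is a gene, black ticks are list medians, the gray band spans the quartiles of all genes, and dashed lines mark the 2-fold limits; medians run from -0.88 for the oncofetal list, which is at -0.12 with a floor of 10, to 1.05 for the major urinary proteins.

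Hepatocyte genes lay on the other side of 0. Of 16 general hepatocyte markers 13 were higher in Scd2f/f;CC livers and 1 by at least 2-fold, with a median of 0.24, and 0.073 with equal sums. Alb, albumin, had means of 21300, 20900 and 22700 in untreated, treated Scd2f/f and Scd2f/f;CC livers. Cyp3a11, a drug-metabolizing enzyme, was the largest exception, with 3990, 2580 and 1830. Markers of periportal hepatocytes were higher in 11 of 13 cases with a median of 0.36, among them Cps1, the entry enzyme of the urea cycle, with 2660, 2390 and 3130, and Hal, which degrades histidine, with 102, 97.7 and 179. Pericentral markers were higher in 11 of 15 cases with a median of 0.21. Cyp2e1, which oxidizes ethanol, had means of 3460, 3990 and 4570, while Glul, glutamine synthetase, had 546, 704 and 675. All 3 transport genes of the pericentral list were lower, with quotients from -0.36 to -0.21. With equal sums the median of the periportal list was 0.19 and that of the pericentral list 0.045.

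Major urinary protein genes, pheromone carriers of male mouse liver, were higher in 20 of 21 cases and by at least 2-fold in 11, with a median of 1.05. Their summed mean was 51456 in untreated, 27776 in treated Scd2f/f and 44963 in Scd2f/f;CC livers. Mup7 had means of 11000, 3430 and 7640, Mup9 887, 630 and 2440, and Mup18 66.5, 18.3 and 174. Mup20 was the lower member, with 8980, 7340 and 5500. These genes are near-identical copies between which the counting may split reads, so single values are uncertain. The pseudogene Mup-ps19 had means of 161, 136 and 0.444, the lowest quotient above the floor at -8.26, and it lies on chromosome 4 as Mup9 and Mup20 do.

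Of 16 genes known to differ between the sexes 11 were higher, 5 of them by at least 2-fold, and 1 was at least 2-fold lower, with a median of 0.38, and of 0.21 with equal sums. Of the 11 male-biased genes 7 were higher, with a median of 0.36, and of the 5 female-biased ones 4 were higher, with a median of 1.09. Hsd3b5, a steroid dehydrogenase of male liver, had means of 128, 29 and 85.8 in untreated, treated Scd2f/f and Scd2f/f;CC livers, and Elovl3, a fatty acid elongase, 13.7, 34.3 and 73.2. Cyp4a12a, which is also higher in males, had 110, 133 and 79.1. Of the female-biased genes, Cyp2b9 had means of 0.135, 6.08 and 31.1 and Cyp2b13 0.04, 0.419 and 2.28, while Cyp2a4 had 0.348, 32.6 and 12.6. Cyp2b9, Cyp2b13 and Cyp2a4 have close paralogs. In a set of growth hormone and prolactin genes chosen after values were seen, Prlr, the prolactin receptor, and Bcl6, a repressor that favors the male program, had quotients of 1.13 and 1.17. The growth hormone target Cish was at -1.54, and Socs2, another target, at 0.08. Stat5a and Stat5b, which carry the signal, were at -0.11 and 0.18, and Igf1, Ghr and Igfals at 0.32, 0.34 and 0.75.

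Xenobiotic cytochromes P450 were higher in 22 of 29 cases and by at least 2-fold in 3, with a median of 0.27, and of 0.099 with equal sums. Cyp2c29 had means of 648, 255 and 581 in untreated, treated Scd2f/f and Scd2f/f;CC livers, and Cyp2e1 is given above. Genes of bile acid synthesis and transport were higher in 20 of 23 cases, with a median of 0.29, and of 0.12 with equal sums. Cyp7a1, the rate-limiting enzyme of bile acid synthesis, had means of 217, 78.2 and 147, and Slco1a4, a transporter, 50.3, 7.74 and 19.7. Abcg5 and Abcg8, which export sterols into bile, had quotients of 0.74 and 0.75. Slco1b2, an uptake carrier, and Abcb11, the bile salt pump, had 0.13 and 0.03, and Abcc3 and Abcc4, which export to blood, -0.33 and -0.52.

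Moxd1, a monooxygenase-like protein, had the largest quotient of all genes above the floor, with means of 21.3, 0.643 and 31.9 in untreated, treated Scd2f/f and Scd2f/f;CC livers. Whether a single mouse sets such a mean cannot be read from group means. Ugt2b38, a glucuronosyltransferase with close paralogs, had means of 56.3, 6.25 and 23. G6pc, glucose-6-phosphatase, had means of 71.2, 54.2 and 136, and Pck1, which starts gluconeogenesis, 897, 715 and 1010. In the same list Pfkfb3, which promotes glycolysis, had means of 24.7, 18.4 and 7.3, and Pkm, the pyruvate kinase of nonhepatocyte cells, had a quotient of -0.64. The list as a whole had a median of -0.09, with 14 of 22 lower.

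Lists of lipid genes had medians near 0. In fatty acid and triglyceride synthesis 12 of 22 genes were lower with a median of -0.10. Lpin1, a phosphatidate phosphatase, had means of 184, 48.1 and 18.3 in untreated, treated Scd2f/f and Scd2f/f;CC livers. Fasn, fatty acid synthase, had a quotient of -0.37 and Fads2, a polyunsaturated fatty acid desaturase, of -0.31, whereas Srebf1, a regulator of these genes, had 0.67. Sterol synthesis and uptake genes had a median of -0.08, beside -2.33 in treated against untreated Scd2f/f livers, and Hmgcs1 had means of 488, 64.8 and 53.4. Fatty acid oxidation genes had a median of 0.09, which equal sums would turn to -0.076. Its 1 member past the limit was Fgf21, a hormone of the fasted liver, with 0.167, 4.19 and 1.53. Lipid droplet proteins had a median of -0.11. Cidec, which fuses droplets, had means of 8.85, 14.3 and 5.56, while Plin2, a perilipin, had 130, 269 and 273.

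The genes whose mRNA the study follows are given next. Yap1, the Hippo effector, had means of 41.2, 32.2 and 34.4 in untreated, treated Scd2f/f and Scd2f/f;CC livers, and Wwtr1, which encodes TAZ, 16.7, 25 and 20.1. Of their targets, Cyr61 had a quotient of -0.16 and Ctgf, with 5.4, 4.33 and 2.51, of -0.79. Over the Hippo list 13 of 21 were lower, with a median of -0.07 and 0 past the limit. In the WNT list 13 of 28 were lower, with a median of 0.02 that equal sums would turn negative, and the members past the limit were Myc and Dkk3 below and Fzd8, a receptor, above, at 1.06. In oxylipin synthesis 8 of 13 were lower with 1 past the limit, Pla2g7, a phospholipase of macrophages, at -1.31, while Ptgs1, the constitutive cyclooxygenase, had means of 4.68, 8.38 and 9.16. Ptgs2, Cyp1b1, Cyp1a1 and Ltb4r2 were below the floor, averaging under 1 over both treated groups, and their quotients were -1.70, -2.19, -0.91 and 0.91. Cyp1b1 had means of 0.717, 1.51 and 0.331 in untreated, treated Scd2f/f and Scd2f/f;CC livers.

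Lists of general cell function had medians near 0. The 25 oxidative phosphorylation genes ran from -0.05 to 0.17 with a median of 0.07, and ethanol and acetaldehyde metabolism had a median of 0.08, both of which equal sums would turn negative. In the latter, Adh1, the main alcohol dehydrogenase, had means of 549 and 528 in Scd2f/f and Scd2f/f;CC livers, and Aldh3a2 432 and 319. Iron handling genes had a median of -0.03, with the ferritin chains Fth1 and Ftl1 at -0.27 and -0.26 and Hamp2, a hepcidin copy, at 1.15. Circadian clock genes had a median of 0.17, and of 0.0056 with equal sums, from Bhlhe41 at -0.68 to Per3 at 0.74.

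Some sets of genes were picked after their values were seen. The globin genes Hbb-bs, Hbb-bt, Hba-a1 and Hba-a2, which mark red blood cells, had quotients from 0.80 to 1.26, with 163, 46.2 and 98.8 for Hbb-bs in untreated, treated Scd2f/f and Scd2f/f;CC livers, and their part in other quotients was not tested. All 7 heat shock genes looked up were lower, Hspa1a, Hspa1b and Hspb1 at -2.20, -1.11 and -1.09 and Hspa8, Hsp90aa1, Hsph1 and Dnajb1 from -0.40 to -0.08. Of 8 annexins 7 were lower, from Anxa1 at -1.16 and Anxa5 at -1.13 to Anxa6 at -0.08, and Anxa11 was at 0.06, which equal sums would turn negative. By gene type, the median was 0.20 for 120 lincRNAs and 0.43 for 30 snoRNAs. CT010467.1, annotated as ribosomal RNA, had means of 76300, 15800 and 6120. Autosomes and the X chromosome had medians from -0.02 to 0.04.

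Chromosome 4 held both ends of the distribution, with 22 of its 768 genes at least 2-fold lower and 13 higher, the latter all of the major urinary protein family except Enho. Between Unc13b and Gne, from 43058953 to 44084178 in mm10, 10 of 17 genes above the floor were at least 2-fold lower, with a median of -1.02. Tpm2, Reck, Tln1, Gne and Clta, named in lists or by size here, lie in it, and the stretch was picked after its values were seen.

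**Figure D5:**
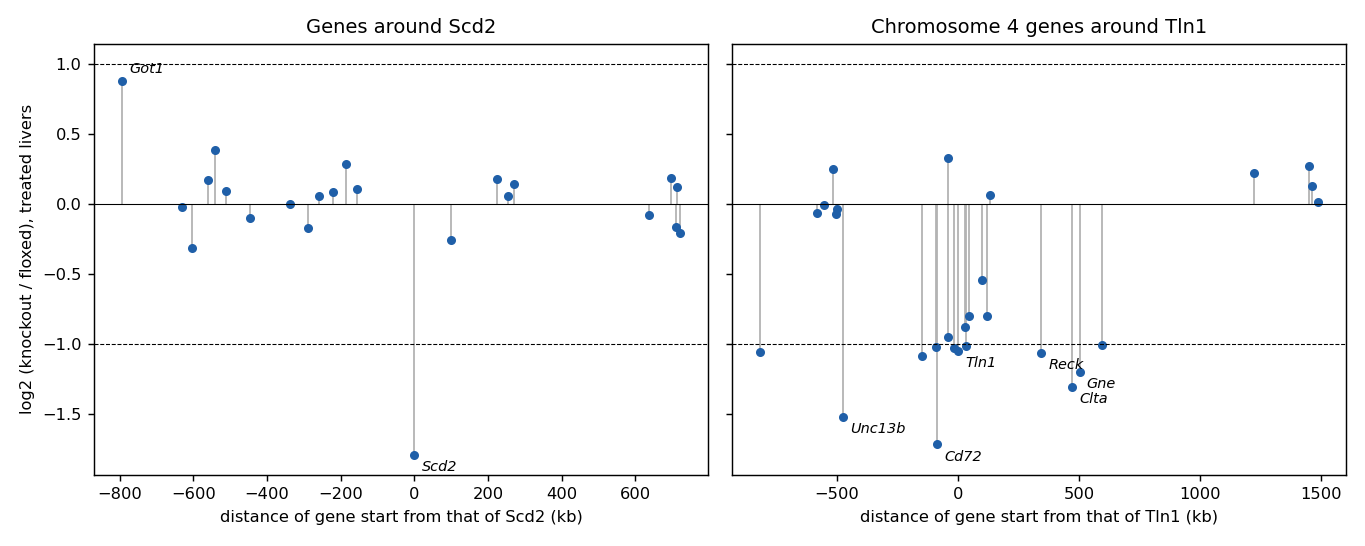
Log2 quotients (vertical axis) of genes above the floor against the distance of their start from that of Scd2 (left) and of Tln1 on chromosome 4 (right), in kb. Each point is a gene and dashed lines mark the 2-fold limits; around Scd2 no gene other than Scd2, at -1.79, passes a limit, while on chromosome 4 lower genes cluster around Tln1.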

How the data were processed

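RNA was extracted from livers of 3 mice in each of 3 groups, selected by poly(A) beads and sequenced on a NextSeq 500. The submitters' processing notes name STAR 2.6.1, Partek 6 and the mm10 genome. The authors assigned reads to Gencode M3 genes with the Partek E/M method, which splits reads between similar genes, normalized gene counts to the upper quartile and compared groups with Gene Specific Analysis. The deposited table gives the authors' signal per group, namely least-squares means of these normalized counts to 3 significant digits, and for 2 comparisons the authors' p-values, false discovery rates, ratios and fold changes, which were not used. Whether each mean was taken on a log scale is not given in the sources used here. Sequencing depth is unknown, and intervals that need it are not given.

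From these means the log2 quotient of Scd2f/f;CC over Scd2f/f was computed for all 16755 genes with Python 3.11.15, NumPy 2.4.6 and pandas 2.3.3. A floor of 1 on the mean of both treated groups was used for counts and medians, and a gene was counted at a 2-fold difference. There was no test. Symbols that resemble dates, 20 in all, were left as they are. Levels are not stated to be per length, so they served to choose genes and apply floors and not to compare genes. The comparison and the 49 gene lists (952 genes, 901 of them in the table) were chosen with earlier results of these data known. The genes named are Scd2 and its family, the 15 lowest and 15 highest protein-coding genes averaging 10 or more, genes the study names for mRNA, and in each list the 4 with the highest means and the 4 with the largest quotients. A few genes that meet this rule are not reported here. Other genes named were chosen after their values were seen. Counting steps were tested on simulated data. Alternatives were no floor, a floor of 10, pseudocounts of 0.1 and 1, a 1.5-fold limit, centring, equal sums and protein-coding genes alone. Scaling to equal sums of protein-coding genes was added after the data were seen.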

Additional observations from a re-analysis of the deposited data

How the results depend on the processing

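No paired analysis was possible because the values used are group means, and for the same reason no replicate could be left out. The count of genes at least 2-fold lower, 195, was 682 with no floor, 37 with a floor of 10, 84 with a pseudocount of 1, 609 at a 1.5-fold limit and 294 with equal sums, and the count at least 2-fold higher, 76, was 305, 24, 38, 275 and 47. Under the other 4 alternatives both counts stayed within 1.5 times. Scd2 was at -1.38 with a pseudocount of 1. List medians moved by over 0.2 on the log2 scale in the following cases, whose cause was not tested. With a floor of 10, which leaves few genes in many lists, collagen processing turned from -0.47 to 0.079, and the medians were -1.14 for activated stellate cells, -0.52 for portal fibroblasts, -1.61 for cholangiocytes, -0.47 for monocytes and lipid-associated macrophages, -1.57 for neutrophils, 0.14 for B and plasma cells, -0.36 for matrix glycoproteins, -1.06 for collagens, -0.15 for matrix proteases, -0.065 for TGF-beta and PDGF genes, -0.26 for the desaturase family, 0.023 for oxylipin genes, -0.018 for the NOTCH pathway, -0.12 for the oncofetal list and -0.18 for chemokines. For portal fibroblasts, cholangiocytes, neutrophils and the desaturase family, the value given is that of a single gene, namely Gas6, Spp1, Lcn2 and Scd1. The medians of sterol genes and of interferon-stimulated genes also turned positive with this floor, at 0.014 and 0.029. With no floor they were -1.86 for cholangiocytes, -0.87 for T and NK cells, 0.10 for B and plasma cells, -0.43 for the cell cycle and -0.67 for immediate early genes. With a pseudocount of 1 they were -0.49 for portal fibroblasts, -0.24 for T and NK cells, -0.82 for the desaturase family and -0.50 for the oncofetal list. Equal sums shifted every log2 quotient by -0.17, so no list median could move by over 0.2, and the sign of 6 medians turned. Equal protein-coding sums shifted every log2 quotient by -0.11. Without values of single mice, any quotient here may rest on 1 mouse, and means under 3 carry the widest spread.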
